A study of Mus musculus with 31 samples.

Results

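Mammary glands with 1 Stat5a allele and 1 Stat5b allele (AB) were compared at parturition with glands that held 1 Stat5a allele and no functional Stat5b allele (A). Both kinds of mice therefore carried the same number of functional Stat5a alleles, and the comparison asks what a Stat5b allele adds beside it. The genes described are all those with at least 1 FPKM in either column after scaling between genotypes, 12861 of the 22609 genes measured. Of these, 271 reached that floor in AB glands alone and 583 in A glands alone. At the edge of the rule, Ttyh1 was just inside (1.00 in AB and 0.554 in A) and Kcnn1 just outside (0.806 and 0.998). FPKM counts the sequenced fragments of a gene, scaled to the length of its transcript and to the number of mapped fragments.

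AB mice had the genotype Stat5ab+/null, with 1 intact chromosome and 1 that lacks both adjacent genes. A mice had the genotype Stat5abnull/Stat5b-, in which the chromosome opposite the null one carries an intact Stat5a and a disrupted Stat5b. These are alleles of the whole animal, so A mice lacked functional Stat5b in every tissue and not in the mammary epithelium alone. All mice were on a mixed 129SV::FVB/N::C57BL/6 background, and mammary tissue without lymph nodes was taken on the day of delivery, less than 12 hours after it. The values of other genotypes are given where they place a gene. These are Null (Stat5abfl/fl;MMTV-Cre, both genes deleted by a Cre that the MMTV promoter drives), B (Stat5abnull/Stat5a-, 1 Stat5b allele), BB (Stat5a-/-, 2 Stat5b alleles) and AABB (wild type, 4 alleles). The labels list 2 samples for AB and 2 for A, and the deposited table gives 1 mean per genotype. No spread, number of replicates or test can therefore be attached to any difference, and the depth is unknown.

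STAT5A and STAT5B are closely related transcription factors. In mammary epithelium the prolactin receptor activates them through the kinase JAK2, after which they form dimers, enter the nucleus and bind DNA. They are known for driving the formation of milk-secreting alveolar cells in pregnancy and the transcription of milk protein genes. STAT5A is the more abundant form in this tissue, and STAT5B is best known for the growth hormone response of liver.

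Stat5b transcript did not separate AB from A. It stood at 7.65 in Null, 12.6 in B, 10.3 in A, 12.6 in BB, 11.2 in AB and 25.4 in AABB. Stat5b- is a disrupted allele, and the sources used here do not give which part of its transcript remains, so these levels check the labels of AB and A in no way. Stat5a stood at 22.9 in AB glands and 16.5 in A glands, which both hold 1 allele, and at 70.8 in AABB. The epithelial part of the tissue was present in both columns. The keratin gene Krt8 stood at 419 against 449, Krt18 at 476 against 677 and the adhesion gene Epcam at 246 against 251 in AB and A.

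Muscle transcripts and sample tags also set these columns apart, and both bear on what follows. Skeletal muscle transcripts were abundant in A glands and close to 0 in AB glands. The summed level of 17 muscle markers was 26.4 in AB and 2886 in A, against 4567 in Null, 2715 in B, 28.0 in BB and 319 in AABB. The sample tags differ as well. Samples of A and B bear a number with R or L, whereas those of AB, BB, Null and AABB do not, and the labels do not say whether A and B samples with a shared number came from 1 animal. Any difference that goes with the form of the tag cannot be told apart from the added allele.

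Adding the Stat5b allele went with a gland rich in milk transcripts. 354 genes were at least 2-fold higher in AB than in A, 2.75% of those compared, and 436 were at least 2-fold lower, 3.39%. Fold here is the ratio of scaled FPKM + 1, given on the log2 scale, where 1 is 2-fold. The added 1 makes the ratios of weakly expressed genes smaller. A difference of 4-fold or more was seen for 79 higher and 88 lower genes, and the median over all genes was −0.04. The remaining 12071 genes lay within 2-fold. The balance of the count rests on the scaling. Without it the split was 225 higher and 687 lower, with the median of all genes shifted by −0.21. The median ratios of 9 of the 34 gene lists with at least 3 members, from −0.06 to 0.23, changed sign under another scaling and give no direction. They were fatty acid synthesis, fatty acid uptake and triglyceride assembly, alveolar transcription factors, tight junctions, epithelial defence, the respiratory chain, and luminal, basal and mast cell markers. When genes that were at least 2-fold higher in AB than in A on day 6 of pregnancy, most muscle genes among them, were left out, the split was 323 higher and 317 lower.

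**Figure D1:**
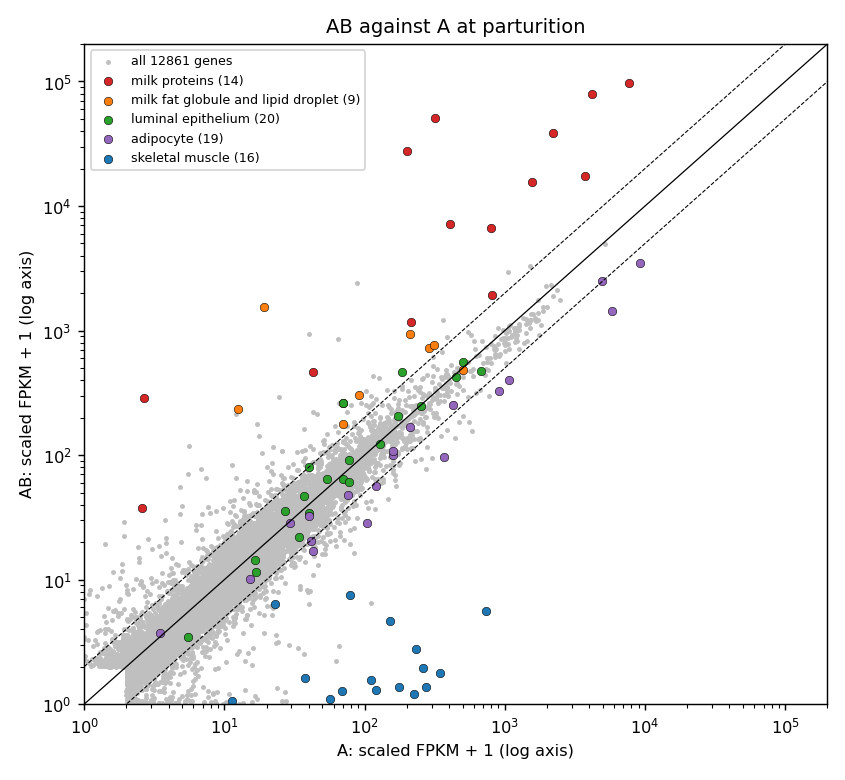
Scaled FPKM + 1 of each gene in AB glands (vertical, log axis) against A glands (horizontal, log axis), with the solid line at equality and dashed lines at 2-fold. Milk protein genes (red) lie above the upper dashed line, skeletal muscle genes (blue) lie far below the lower, and luminal epithelial markers (green) lie mostly between the dashed lines.

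All 14 milk protein genes were at least 2-fold higher in AB glands, with a median log2 ratio of 3.77. Without scaling 13 were, and Mfge8 lay just within 2-fold. Together they made up 45.8% of all FPKM in AB glands and 4.91% in A glands, against 66.3% in AABB. In whole tissue, fewer secretory cells in A glands and less transcript per cell cannot be told apart. The caseins are the major milk proteins, secreted as calcium-carrying micelles. Csn2 (beta-casein) had 97643 FPKM in AB glands, against 7706 in A glands, a ratio of scaled FPKM of 12.7. Csn1s1 (alpha-S1-casein) had 38716 FPKM in AB glands, against 2191 in A glands, Csn1s2a (alpha-S2-casein) 79476 against 4152, and Csn3 (kappa-casein, which stabilises the micelle) 15544 against 1574. These 4 caseins thus stood 9.88 to 19.1 times higher in AB. Csn1s2b, the other alpha-S2-casein gene, was the most weakly expressed casein and differed more, with 284 FPKM in AB glands, against 1.66 in A glands (log2 ratio 6.74).

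Glycam1 and Wap had the widest log2 ratios of the list, whereas Csn1s2b had the widest ratio of scaled FPKM without the added 1 (171, against 159.9 for Glycam1 and 138 for Wap). Glycam1, which encodes a secreted mucin-like milk protein, had 50959 FPKM in AB glands, against 319 in A glands (log2 ratio 7.32). Wap, which encodes whey acidic protein, had 27599 FPKM in AB glands, against 201 in A glands (log2 ratio 7.10). Across all genotypes Wap stood at 296 in Null, 13.1 in B, 201 in A, 17011 in BB, 27599 in AB and 138276 in AABB, so that B glands were below Null and A glands were of the order of Null. Spp1 (osteopontin) had 7198 FPKM in AB glands, against 405 in A glands, and Lalba, the alpha-lactalbumin subunit of lactose synthase, 6598 against 800.4. Cel (bile salt-activated lipase) had 467 against 41.5, Lpo (the antibacterial lactoperoxidase) 36.5 against 1.57 and Ltf (the iron-binding lactoferrin) 1166 against 215. Narrower ratios belonged to Trf (transferrin, 17448 against 3709.9, log2 ratio 2.23) and Mfge8 (a milk fat globule protein, 1913 against 812, log2 ratio 1.24), both already abundant in A. Set against AABB, the genes differed in how far AB glands had come. The level in AB was 39.8% of that in AABB in the median gene, and the level in A 2.08%. Ltf in AB was 113% of AABB, Trf 65.7% and Lalba 60.7%, while Csn2 was 40.0%, Wap 20.0% and Csn1s2b 1.65%.

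**Figure D2:**
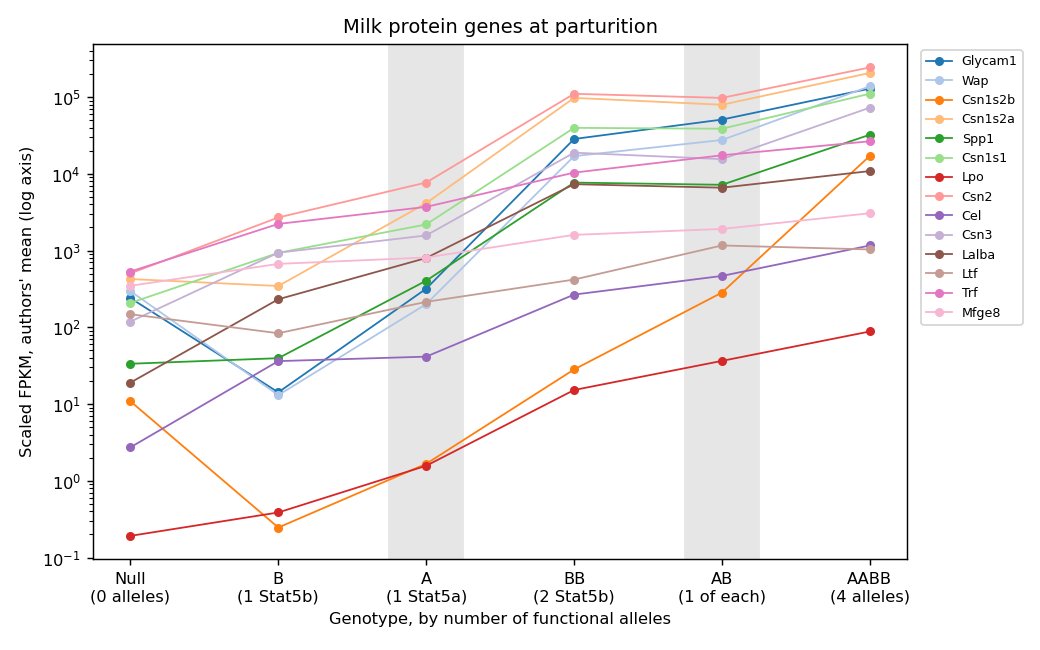
Scaled FPKM (log axis) of the 14 milk protein genes in each of the 6 genotypes, ordered by the number of functional Stat5 alleles, with A and AB shaded. Each point is the authors' mean. Every line is higher at AB than at A, and Csn1s2a, Csn1s2b, Wap, Glycam1 and Ltf are lower at B than at Null.

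Promoters of these genes are shown because STAT5 is known to act on casein genes through sites with the letters TTCNNNGAA, a palindrome that reads the same on both strands. The 250 bases before the transcription start were taken from RefSeq (build GRCm38.p6, not the build of the files), written in the direction of transcription, with each match in capitals. Csn1s1 (chr5:87665958-87666207, + strand), Csn2 (chr5:87699426-87699675, − strand) and Glycam1 (chr15:103565082-103565331, − strand) held 1 match each, starting 100, 93 and 145 bases before the start. Wap (chr11:6638650-6638899, − strand), with a ratio as wide as that of Glycam1, held none in this window.
Csn1s1: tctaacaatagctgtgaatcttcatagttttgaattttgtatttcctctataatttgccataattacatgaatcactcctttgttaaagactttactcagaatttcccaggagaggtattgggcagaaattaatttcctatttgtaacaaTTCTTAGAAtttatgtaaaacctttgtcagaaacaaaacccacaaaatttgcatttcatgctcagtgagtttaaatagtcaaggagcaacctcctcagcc
Csn2: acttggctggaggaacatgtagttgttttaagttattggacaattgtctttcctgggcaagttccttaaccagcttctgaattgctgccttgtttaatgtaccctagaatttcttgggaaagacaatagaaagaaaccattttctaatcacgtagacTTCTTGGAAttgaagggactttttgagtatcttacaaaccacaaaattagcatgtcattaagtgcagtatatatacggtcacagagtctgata
Glycam1: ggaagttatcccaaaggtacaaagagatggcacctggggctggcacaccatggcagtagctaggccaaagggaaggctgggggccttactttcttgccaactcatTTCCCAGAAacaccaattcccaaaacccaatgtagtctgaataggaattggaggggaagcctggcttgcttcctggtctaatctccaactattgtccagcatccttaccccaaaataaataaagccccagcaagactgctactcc
Wap: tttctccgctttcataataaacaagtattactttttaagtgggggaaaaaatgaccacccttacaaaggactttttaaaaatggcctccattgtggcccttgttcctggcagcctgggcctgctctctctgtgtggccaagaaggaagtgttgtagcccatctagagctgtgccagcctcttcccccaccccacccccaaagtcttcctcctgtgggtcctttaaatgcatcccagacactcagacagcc

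Of all 32851 windows of this length, 7.02% held a match. Of the genes compared, 9100 had a window, and 7.32% of them held a match in at least 1. The share was 10.9% of the genes higher in AB (28 of 256) and 5.26% of those lower (15 of 285). Among milk protein genes 3 of 11 with a window held a match, and these 3 are the ones shown above. The window of Cish, a feedback inhibitor that STAT5 itself induces, held none. A match is a string of letters and not a measured binding site.

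A Stat5b allele is also added between BB and B, where the allele already present is Stat5b and no column is shared with AB and A. Of 12922 genes, 432 were at least 2-fold higher in BB (3.34%) and 608 lower (4.71%). The higher genes of both steps had 230 in common, 65.0% of those of AB over A and 53.2% of those of BB over B. The lower genes had 271 in common, 62.2% and 44.6%. These counts move with the scaling. BB over B had 296 higher and 1030 lower genes without scaling, and 315 and 901 with scaling to summed FPKM outside the milk protein list. The shared genes then numbered 163 higher and 417 lower without scaling (72.4% and 60.7% of those of AB over A, 55.1% and 40.5% of those of BB over B). With scaling outside the milk list they numbered 217 and 276 (52.4% and 70.2% of those of AB over A, 68.9% and 30.6% of those of BB over B). Opposite directions past 2-fold were seen for 2 genes higher in AB and 1 lower in AB. Muscle markers differed in both steps, and so did the form of the sample tag, so the shared genes include any that go with these. Milk protein genes were also 14 of 14 higher in BB, with a median of 4.76, and 9 of them had the wider ratio there. Glycam1 had log2 ratios of 7.32 for AB over A and 10.87 for BB over B, Wap 7.10 and 10.24, and Csn1s2a 4.26 and 8.14. The starting levels were unlike, since Wap stood at 201 in A and 13.1 in B, and the levels reached were closer, at 27599 in AB and 17011 in BB. Csn1s2b went the other way, with the wider ratio for AB over A (6.74 against 4.55) and levels of 284 in AB and 28.2 in BB. None of these differences between steps could be tested.

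**Figure D3:**
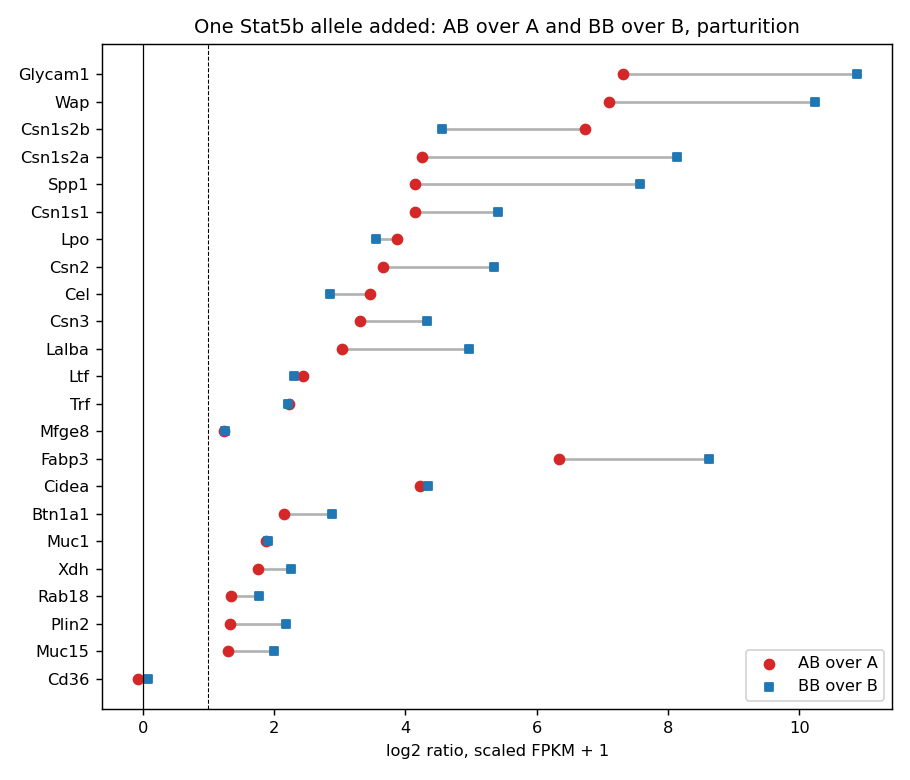
Log2 ratios of AB over A (red circles) and BB over B (blue squares) for milk protein genes (upper 14) and milk fat globule and lipid droplet genes (lower 9), with the dashed line at 2-fold. Ratios of both steps lie right of the dashed line for every gene but Cd36, and the widest gaps between steps belong to Csn1s2a, Glycam1, Spp1 and Wap.

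Genes that package milk fat followed the milk proteins. Of 9 genes of the milk fat globule and lipid droplet, 8 were higher in AB, 88.9% against 2.75% of all genes. The median log2 ratio was 1.76. Fabp3, a fatty acid carrier of lactating epithelium and muscle, had 1556 FPKM in AB glands, against 18.3 in A glands, while the muscle genes went the other way. Cidea, a lipid droplet protein known from brown fat and lactating gland, had 231 against 11.4. Btn1a1 (butyrophilin, 941 against 209.8) and Xdh (xanthine oxidoreductase, 305 against 89.5), which join on the membrane that wraps the fat globule, had log2 ratios of 2.16 and 1.76. The mucins Muc1 and Muc15, Rab18 and the droplet coat gene Plin2 ranged from 1.30 to 1.88. The fatty acid uptake gene Cd36 was alike, with 477 against 500.1.

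Of 18 fatty acid synthesis genes, 5 were higher and 1 was lower in AB (27.8% and 5.56%, against 2.75% and 3.39% of all genes). Without scaling 5 were higher and 4 lower, and the median of 0.23 became −0.01. Olah, the thioesterase that releases the medium-chain fatty acids typical of milk, had 212 FPKM in AB glands, against 11.2 in A glands (log2 ratio 4.13). Elovl1 (1.68), the desaturase Fads2 (1.57), its relative Fads1 and Aldoc were also higher. Elovl6, which elongates palmitate, had 18.5 FPKM in AB glands, against 78.2 in A glands, and the fatty acid synthase gene Fasn 304 against 370.1. Of 16 genes of fatty acid uptake and triglyceride assembly, 6.25% were higher and 18.75% lower. The 1 higher was Acsl4, an acyl-CoA synthetase (50.5 against 15.3), and 3 were lower. These were Dgat2 (the last step of triglyceride synthesis, 94.3 against 300.3), Gpam (the first step, 22.7 against 53.1) and the transporter gene Slc27a1 (84.9 against 179), all expressed in fat cells too. The summed adipocyte markers were lower in AB as well (9103 against 23751), and their part in these ratios was not tested. Of 22 cholesterol synthesis genes, 5 were higher (22.7%) and none lower, with 20 above 0 and a median of 0.65. Fdps had 108 against 36.3, Hsd17b7 10.4 against 3.31, Mvd 27.2 against 10.5 and Sqle (squalene epoxidase) 49.2 against 19.6.

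In the lists for sugar, mineral and amino acid supply, 33.3%, 35.7% and 25.0% of genes were higher in AB, against 2.75% of all genes. The medians of these lists lay within 2-fold. Of 12 genes of lactose synthesis and glucose supply, 4 were higher. Beside Lalba they included B4galt1, the catalytic subunit of lactose synthase (214 FPKM in AB glands, against 44.9 in A glands), and the glucose transporter gene Slc2a1 (46.2 against 21.0). Of 14 genes of calcium, zinc and serotonin, 5 were higher, with a median of 0.91. Atp2c2, a Golgi calcium pump, had 75.7 FPKM in AB glands, against 5.83 in A glands, and the phosphate carrier gene Slc34a2 141 against 16.8. Atp2b2, the pump that secretes calcium into milk, had 6.67 against 0.0824 and 63.3 in AABB. The milk zinc transporter gene Slc30a2 had 4.15 against 0.393 and the calcium channel gene Orai1 57.6 against 16.1. Tph1, the serotonin synthesis gene, was within 2-fold at 13.9 against 20.6. Of 16 amino acid transporters, 4 were higher and 1 lower. Slc7a5, the large neutral amino acid carrier, had 60.9 FPKM in AB glands, against 13.5 in A glands, against 23.0 in BB and 9.21 in B. Slc38a3 had 8.53 against 1.55, Slc7a4 9.95 against 3.00, Slc7a1 8.43 against 3.19 and Slc43a1 5.03 against 11.8. Of 14 genes of ion and water transport in ducts, 3 were higher and none lower, 9 were below 0, and without scaling 2 were higher and 2 lower. Aqp3, a water and glycerol channel, had 18.4 FPKM in AB glands, against 0.397 in A glands, the potassium channel gene Kcnk1 63.9 against 25.0 and Clca2 218 against 104. Of 12 tight junction genes only Cldn8 passed 2-fold, with 51.1 against 11.9.

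Most genes of the secretory pathway had ratios above 0, with a median within 2-fold. The share past 2-fold was 16.7%, against 2.75% of all genes. Of 30 genes, 28 were above 0, 5 passed 2-fold and none was 2-fold lower, with a median of 0.74. Those past 2-fold were parts of the channel that brings new proteins into the endoplasmic reticulum (Sec61b 281 against 119, Sec61a1 172 against 73.3, Ssr2 334 against 143, Ssr4 260.5 against 113) and the chaperone partner gene Sdf2l1 (65.6 against 29.0). Without scaling all 5 came just within 2-fold, with log2 ratios of 0.92 to 0.99, and 26 of the 30 were above 0. With scaling to summed FPKM outside the milk protein list, 8 passed 2-fold. The chaperone gene Hspa5 had 675 against 354, while the stress factor gene Ddit3 had 8.95 against 15.1 (log2 ratio −0.69).

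Most genes that carry the prolactin signal lay within 2-fold, as did most of all genes compared. Of 18 genes of prolactin and STAT5 signalling, 1 was higher and 1 lower, and the median was −0.29. That is 5.56% each, against 2.75% and 3.39% of all genes. Akt1, a survival kinase, had 152 FPKM in AB glands, against 63.6 in A glands. Cish, a feedback inhibitor that STAT5 itself induces, had 26.5 FPKM in AB glands, against 13.2 in A glands, a log2 ratio of 0.95 just within 2-fold, and its level in BB (9.35) was below that in B (15.4). Socs2, another STAT5 target, stood at 13.2 against 10.9, the kinase gene Jak2 at 14.1 against 15.6 and the prolactin receptor gene Prlr at 14.9 against 21.7. The repressor gene Bcl6, known as negatively regulated by STAT5, had 6.53 against 14.1 (at the 2-fold line, and within it under other scalings). Of 14 alveolar transcription factors, only Elf5, which specifies alveolar cells, passed 2-fold, with 463 FPKM in AB glands, against 185 in A glands. Across genotypes Elf5 stood at 66.9 in Null, 126 in B, 185 in A, 725 in BB, 463 in AB and 1085 in AABB. Xbp1 had 516 against 304, Gata3 49.6 against 58.5 and Sox10 87.2 against 70.5.

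Most luminal and basal markers lay within 2-fold, as did most of all genes compared. Those higher in AB were 2 of 20 and 1 of 16, against 2.75% of all genes. Among hormone-sensing markers 5 of 14 were lower in AB, against 3.39% of all genes. Of 20 luminal markers, 2 were higher (Muc1 and Elf5) and none lower, with a median of −0.05 and sums of 3264 in AB and 2915 in A. Of 16 basal and myoepithelial markers, 1 was higher (Myh11, a smooth muscle myosin, 103 against 49.3) and none lower, against none higher and 1 lower without scaling, with a median of 0.11. Acta2 had 977 against 541, Krt14 83.7 against 84.6 and Krt5 103 against 106. Of 14 hormone-sensing markers, 5 were lower and none higher, with a median of −0.56. Calca (calcitonin) had 2.08 FPKM in AB glands, against 22.2 in A glands, Foxa1, a partner factor of the oestrogen receptor, 4.39 against 16.7, Cxcl15 1.83 against 8.30, Ly6a 89.4 against 227 and Cited1 20.9 against 49.8. The receptor genes Esr1 (5.66 against 6.17) and Pgr (1.32 against 2.10) were low in both columns and within 2-fold. In BB over B, 11 of these 14 were lower.

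Defence genes of the epithelium split. Of 22, 8 were higher and 6 lower (36.4% and 27.3%, against 2.75% and 3.39% of all genes), and the median was 0.03. The acute phase genes Saa1 (849 FPKM in AB glands, against 63.7 in A glands) and Saa2 (935 against 39.2) were among those higher, as were Pigr, which carries antibodies into milk (177 against 16.0), the siderophore-binding Lcn2 (3306 against 1501), Wfdc12, Cp, Lpo and Ltf. Saa1 and Saa2 are near-identical copies and their separate levels are uncertain. Lower were S100a9, a neutrophil protein (1.22 FPKM in AB glands, against 13.0 in A glands), Saa3 (36.0 against 118), the lysozyme genes Lyz2 (203 against 501) and Lyz1, Wfdc2 and Hp. Macrophage markers summed to 621 in AB and 1176 in A. Of 13, 2 were lower (5 without scaling), 15.4% against 3.39% of all genes. The part of macrophages in the lower lysozyme levels was not tested. Of 24 interferon response genes 2 were lower (Oas1a 2.27 against 6.34, Irf7 18.3 against 37.8), 8.33% against 3.39% of all genes. Of the 24, 22 were below 0, and the median was −0.40.

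Genes of STAT3 and of involution, the regression of the gland after weaning, were within 2-fold throughout, as were 12071 of all 12861 genes compared. Among these 19 genes Stat3 stood at 77.1 against 80.0, Socs3 at 7.34 against 10.7 and Igfbp5 at 912 against 1214 in AB and A, and the list median was −0.10.

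Cell cycle genes leaned towards AB as a group. All 29 had ratios above 0 (28 without scaling), and the median was 0.68, against −0.04 over all genes. Past 2-fold were 7, 24.1% against 2.75% of all genes. The levels were low, with the replication helicase genes Mcm5 at 10.3 FPKM in AB glands, against 3.24 in A glands and Mcm2 at 10.9 against 4.14, the proliferation marker Mki67 at 4.82 against 1.21, the topoisomerase gene Top2a at 7.78 against 2.40 and the cyclin gene Ccna2 at 5.63 against 1.82. For BB over B none of the 29 passed 2-fold and the median was 0.07. B glands stood at 5.05 for Mcm5 and 5.39 for Top2a, above A in both, and the difference between the steps was not tested. Of 79 cytosolic ribosomal protein genes none was higher and 2 lower (Rpl3l, a muscle form, and Rpl39l), with a median of −0.31. Of 75 respiratory chain genes 1 was higher (Atp5g1, 171 against 82.8) and 2 lower (the muscle form Cox6a2 and Cox7a1), with a median of −0.06. For ribosomal genes 2.53% were lower, and for the respiratory chain 1.33% were higher and 2.67% lower. All lay below the shares of all genes, 2.75% higher and 3.39% lower.

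Muscle genes had the lowest ratios. All 16 skeletal muscle markers compared were lower in AB, with a median log2 ratio of −6.26. Of the 16, 11 reached the floor of 1 FPKM in A glands alone, which fixes their direction. Over the 17 measured genes of the list the median was −6.14. The 15 lowest of all genes with at least 5 FPKM were genes of striated muscle. Ckm (muscle creatine kinase) stood at 587 in Null, 385 in B, 344 in A, 0.611 in BB, 0.780 in AB and 47.8 in AABB. Acta1, the actin of skeletal muscle, had 4.63 against 730.4 in AB and A, the fast myosin gene Myh4 0.298 against 119, the troponin genes Tnnt3 and Tnnc2 0.363 against 271 and 0.204 against 224, and Atp2a1, the calcium pump of fast muscle, 0.360 against 176. The labels describe the tissue as mammary gland without lymph nodes and say nothing of muscle. Over all genes compared, 2.75% were higher and 3.39% lower in AB. Of 19 adipocyte markers 9 were lower (47.4%) and none higher, with a median of −0.99 and sums of 9103 in AB and 23751 in A. Cfd (adipsin) had 1446 FPKM in AB glands, against 5813 in A glands, the hormone genes Retn 94.6 against 369 and Adipoq 401 against 1069, and the fatty acid carrier gene Fabp4 3488 against 9203, while the leptin gene Lep was alike at 27.7 against 28.4. Of 8 brown fat markers 3 were higher (Cidea, Otop1 and Ucp1, 3.70 against 0.568) and 2 lower, of which Elovl3 had 0.357 against 22.9. Of 18 fibroblast and matrix markers 1 was higher (Col3a1, 883 against 384), and the median was 0.47, while without scaling none was higher and 1 lower. Of 9 nerve markers 3 were lower, and 6 without scaling. No endothelial (14), mast cell (9) or T cell (3) marker passed 2-fold, and neither did 12071 of all 12861 genes compared. Of 4 neutrophil markers only S100a9 did, while S100a8, its binding partner, was within it. Of 3 B and plasma cell markers compared, only the antibody joining chain gene Igj passed 2-fold (20.3 against 1.84). In BB over B 0 did, and the median over the 12 measured genes of that list was 0.12 for AB over A. Of 8 MHC class II genes only the protease gene Ctss was lower (58.5 against 130.2). The haemoglobin genes Hba-a1 and Hbb-b1 are listed at 0 in both columns.

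**Figure D4:**
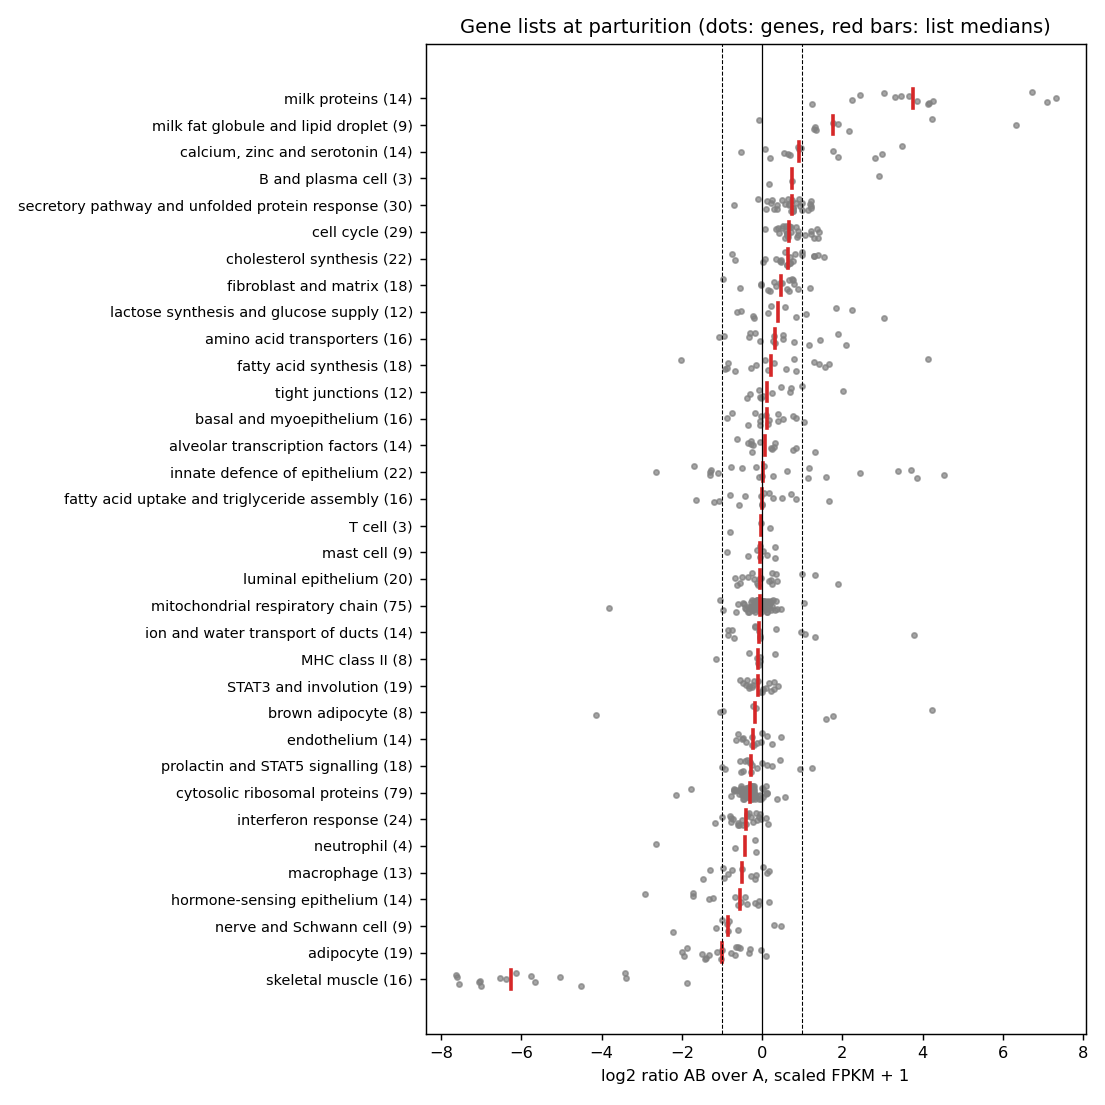
Log2 ratio of AB over A for the genes of each list with at least 3 members (grey dots; the number of genes is in parentheses), with the list median as a red bar, the solid line at 0 and dashed lines at 2-fold. Milk proteins stand at the top, with a median of 3.77, and skeletal muscle at the bottom, with −6.26, while most list medians lie between the dashed lines.

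Of the 15 genes with the highest ratios, 12 belong to the lists described above. The other 3 were Lao1, Chrdl2 and Gldc. Lao1, an amino acid oxidase of mouse milk that makes hydrogen peroxide, had 2405 FPKM in AB glands, against 87.8 in A glands (log2 ratio 4.76). Chrdl2, which encodes a binder of bone morphogenetic proteins, had 118 against 4.62, and Gldc, of the enzyme complex that cleaves glycine, 28.3 against 0.933. All 3 were also higher in BB than in B, with log2 ratios of 6.53, 4.83 and 4.17. Among lower genes outside muscle, picked after their values were seen, Gchfr, the regulator of a cofactor-making enzyme, had 1.80 FPKM in AB glands, against 32.5 in A glands. Ptn, which encodes the growth factor pleiotrophin, had 7.09 against 39.9, the chemokine gene Cxcl13 1.07 against 14.6 and the creatine synthesis gene Gatm 4.18 against 20.8.

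On day 6 of pregnancy, before milk protein genes are strongly expressed, the same genotypes gave another pattern, from a table that was scaled separately. Of 13409 genes, 599 were higher (4.47%) and 555 lower (4.14%) in AB than in A. The genes higher at both stages numbered 31, 8.76% of those at parturition and 5.18% of those on day 6. Those lower at both numbered 52, 11.9% and 9.37%. A larger set, 119 genes, was lower in AB at parturition and higher in AB on day 6, and most muscle markers belong to it. Of the 16, 14 were higher in AB on day 6, with a median of 6.08. Of 14 milk protein genes, 1 was higher (Ltf, 19.1 in AB and 6.23 in A) and 4 were lower on day 6, with a median of 0.03. Fabp3 was higher in AB at both stages, with 6.62 in AB and 1.39 in A on day 6, as was Slc7a5 (17.9 and 3.90). Fabp3 is also a muscle gene, and the summed muscle markers on day 6 were 8460 in AB and 115 in A. The part of muscle in its day 6 level was not tested. Elovl6 was lower at both, with 79.7 in AB and 322 in A on day 6, when it stood at 109 in BB and 329 in B.

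**Figure D5:**
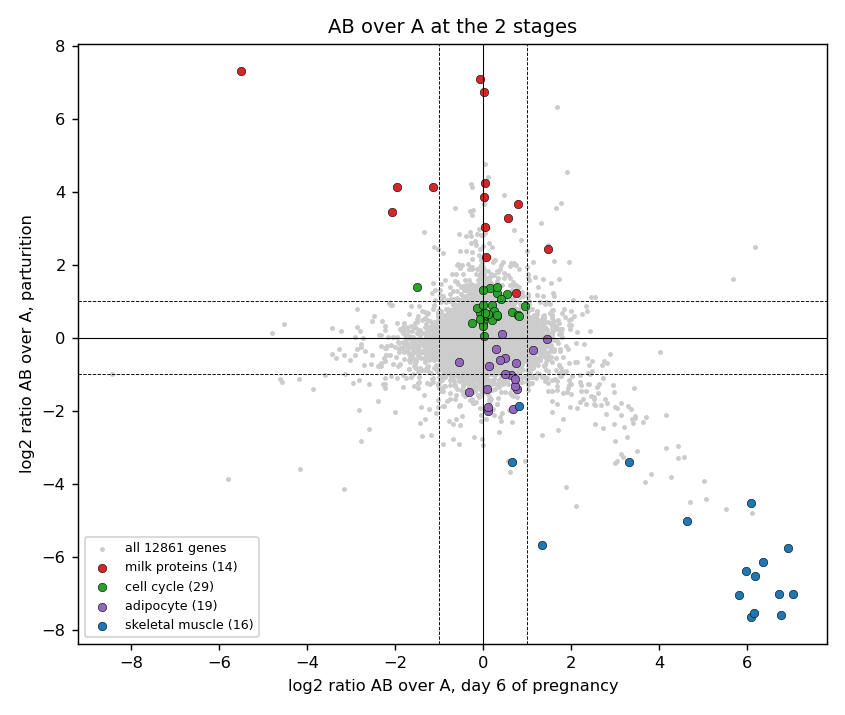
Log2 ratio of AB over A at parturition (vertical) against that on day 6 of pregnancy (horizontal) for each gene, with dashed lines at 2-fold. Skeletal muscle genes (blue) lie at the lower right, low in AB at parturition and high in AB on day 6, while milk protein genes (red) lie above the upper dashed line across a range of day 6 ratios.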

How the data were processed

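Per the labels' protocols, polyadenylated RNA was extracted from mouse mammary glands and sequenced with Illumina chemistry. Base calls were made with CASAVA and reads were aligned with TopHat to mm9, per the submitters' processing notes. Versions, the program that estimated FPKM, its annotation and its filters are not given in the sources used here. The deposited values are FPKM per gene symbol, which the authors gave as 1 column per genotype and stage, each the mean over that genotype's samples. The protocol speaks of 2 mice per genotype, and the labels list 2 samples each for AB and A at parturition and 3 each on day 6. Samples were grouped by the genotype and stage in their labels. Since the columns are means, no test, spread or interval was possible, depth is unknown, and all differences are descriptions.

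The 6 columns of a stage were scaled by median ratio to their geometric mean, using the genes that reached 1 FPKM in every column (10864 at parturition, 11733 on day 6). The factors at parturition were 0.933 for AB and 1.10 for A. Ratios are log2 of scaled FPKM + 1, and a gene was counted at 2-fold. The calculation was run on simulated data made from the A column without noise, which checks the arithmetic alone. Genes, 35 lists and the naming rule were chosen with earlier results of these data known. The rule takes Stat5a and Stat5b, all milk protein genes, up to 4 members per list with the widest ratios, and the 15 highest and 15 lowest genes of at least 5 FPKM with characterised names. Values of a few named genes are not reported here. Further list members were named as context after their values were seen. Promoter windows came from RefSeq (GRCm38.p6) by symbol. Alternatives were a pseudocount of 0.1, no floor, a floor of 5 FPKM, no scaling, scaling over the compared columns alone, scaling to summed FPKM outside the milk protein list, and removal of the trend with transcript length and GC content (GENCODE transcripts, 98.4% of symbols matched). Scripts ran in Python 3.11.15, with pandas 2.3.3, statsmodels 0.14.6, matplotlib 3.10.9 and numpy 2.4.6.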

Additional observations from a re-analysis of the deposited data

Results flagged for a closer look

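The list of skeletal muscle markers passed 2-fold in opposite directions at the stages, which set it aside for a closer look. Its median log2 ratio of AB over A was −6.26 at parturition and 6.08 on day 6 of pregnancy. Summed over the list, AB and A glands stood at 26.4 and 2886 scaled FPKM at parturition, and at 8460.0 and 115 on day 6.

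Of the milk protein genes, 4 passed 2-fold in opposite directions at the stages. Glycam1 had log2 ratios of 7.32 at parturition and −5.51 on day 6, where it stood at 0.0247 in AB and 45.6 in A. On day 6 it stood at 69.8 in B, 13.5 in BB and 81.6 in AABB. The summed B and plasma cell markers stood then at 13.8 in AB, 191 in A, 268 in B, 31.1 in BB and 10.6 in AABB. The part of lymphoid cells in the day 6 level of Glycam1 was not tested. Csn1s1 had 4.14 and −1.96, with 7.84 in AB and 33.3 in A on day 6. Spp1 had 4.15 and −1.15, and Cel 3.46 and −2.09. None of these differences between stages was tested, since the columns are means.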

How the results depend on the processing

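No paired analysis was possible because the columns are means, and for the same reason no fit could leave out a replicate. Genes at least 2-fold lower in AB numbered 436, and 700 with a pseudocount of 0.1 and 687 without scaling. Those higher numbered 354, and 225 without scaling. For BB against B, the lower genes numbered 608, and 1106 with the pseudocount of 0.1 and 1030 without scaling. Scaling BB and B to summed FPKM outside the milk protein list gave 315 higher and 901 lower genes. The skeletal muscle median was −7.42 with the pseudocount of 0.1. The milk protein median moved by less than 1.5-fold under each alternative tried. No list median past 2-fold, and no gene past 2-fold that the naming rule took, changed sign under any of them. Under scaling alternatives, genes such as Bcl6, Irf7, Slc27a1 and Cox7a1 came within 2-fold, and without scaling so did Slc2a1, Slc7a1, Sec61b, Ssr2, Sec61a1, Ssr4, Sdf2l1, Clca2, Atp5g1, Myh11 and Col3a1. With the length and GC trend removed, 352 genes were higher and 412 lower in AB. The comparisons without genes higher in AB on day 6, and the alternatives for BB against B, were chosen after seeing the data. The unknown depth limits what ratios of genes near 1 FPKM can show.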

Other observations

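Gene families outside the lists were picked after their values were seen, so that their counts follow from that choice. Over all genes compared, 2.75% were at least 2-fold higher in AB and 3.39% lower. All 20 cytosolic aminoacyl-tRNA synthetase genes, whose enzymes load amino acids for translation, had ratios above 0 in AB over A. Of these 4 passed 2-fold, and the median was 0.75. Iars stood at 39.6 FPKM in AB glands, against 15.8 in A glands and Aars at 33.0 against 14.9. For BB over B the median was 0.64, and for AB over A on day 6 it was −0.08. Of 16 genes of proline, serine and polyamine synthesis, 7 were higher and none lower, 13 were above 0, and the median was 0.84. The ornithine decarboxylase gene Odc1 had 107 FPKM in AB glands, against 24.7 in A glands and the spermidine synthase gene Srm 78.9 against 19.1. Aldh18a1 (51.7 against 15.2) and Pycr1 (7.28 against 1.02) make proline, and Phgdh (75.5 against 32.7) opens the serine pathway, whereas the spermine synthase gene Sms had 2.25 against 5.44 (log2 ratio −0.99) and Psph and Pycrl were also below 0. Of 13 genes of the COPII coat, which buds vesicles from the endoplasmic reticulum, 3 were higher, among them Sec23b (69.9 against 21.2). Of 9 coatomer genes 1 was higher, with a median of 0.80.

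Of 8 connexin genes, which encode gap junction channels, 3 were higher, none was lower and 4 were above 0. Gjb2 (connexin 26) had 64.5 FPKM in AB glands, against 11.1 in A glands, Gjb1 7.99 against 0.989 and Gjb6 6.41 against 0.229. Of 16 clock genes Hlf (27.4 against 12.2) and Per1 (16.2 against 7.51) were higher and Tef (9.53 against 24.1) was lower in AB, with 6 above 0 and a median of −0.41. For BB over B, 1 was higher and 5 were lower. For AB over A on day 6, 3 were higher and 5 lower. Dbp stood then at 5.00 in AB and 2.38 in BB, against 38.1 in A and 39.1 in B. Npas2 stood at 3.85 in AB and 4.01 in BB, against 0.656 in A and 0.780 in B. Since the hour of collection is given only as a span after delivery, its part was not tested.

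Some genes were lower in AB than in A at both stages. Ifi202b had 1.54 against 35.8 at parturition and 0.0281 against 56.5 on day 6, and Gchfr 1.80 against 32.5 and 0.737 against 30.3. Elovl3 had 0.357 against 22.9 and 0.825 against 15.5. The histidine ammonia-lyase gene Hal had 4.75 against 11.6 and 0.128 against 26.7, and the histocompatibility genes H2-K2 and H2-Q2 had log2 ratios of −1.20 and −1.14 at parturition and −4.57 and −4.19 on day 6. Ifi202b and the H2 genes have close relatives in the genome, so their levels are uncertain, and the strain background is mixed. In BB on day 6, Gchfr (27.9) and Hal (27.6) were near their levels in A. So were H2-K2 (40.9 in BB, 34.3 in A) and H2-Q2 (49.3 and 39.1). Ifi202b stood at 16.6 in BB and 55.7 in B then, and Elovl3 at 0.733 in BB, 16.4 in B and 22.5 in AABB. The part of the added allele in these day 6 levels was not tested. Apln, which encodes a peptide hormone of blood vessels, was higher at both, with 21.5 against 0.918 and 9.73 against 2.44, as was the secretory kinase gene Fam20c, which phosphorylates caseins, with 64.7 against 6.35 and 11.9 against 4.18.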
